A study of Mus musculus with 6 samples.

Results

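Transcripts of the ATF4 pathway and of serine, folate and proline synthesis were followed in cells sorted from pressure-overloaded and sham-operated mouse hearts. The set comprised 10 genes: Atf4, Chac1, Trib3, Asns, Phgdh, Psat1, Mthfd2, Aldh18a1, Pycr1 and Slc7a5. They were chosen by name, with earlier results of these data known. A gene was read from probe sets annotated with exactly 1 symbol, and where a gene had several, the brightest on average gave its value. By that rule 9 of the 10 genes were measured, through 22 probe sets, out of 18194 genes on the array. Pycr1, the mitochondrial enzyme that completes proline synthesis, had no probe set annotated to it alone and was not analysed here.

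The cells came from the left ventricle of adult male Black Swiss mice, 8 to 10 weeks of age. Transverse aortic constriction (TAC), a band on the aorta that raises the load on the ventricle, was set against a sham operation, with 3 mice of each kind per the design text and cells collected 1 week after surgery. The 6 groups, with 1 array each, were TAC and sham Tie2-Cre traced cardiac fibroblasts, TAC and sham untraced cardiac fibroblasts, and TAC and sham endothelial cells. Tie2-Cre is driven by the promoter of an endothelial receptor gene and also acts in some blood cells, so a traced fibroblast is one that carries the mark of present or past promoter activity. The allele that reports the mark is not named in the labels. It is also unknown from them if populations of 1 surgery were taken from shared mice, or if RNA was pooled. With 1 array per group, no TAC or lineage difference below has an error or a test.

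ATF4 is a transcription factor whose protein is made when phosphorylation of the initiation factor eIF2 slows general translation, as in amino acid shortage or endoplasmic reticulum stress. It binds C/EBP-ATF response elements and drives genes for amino acid synthesis and uptake, tRNA charging and stress signalling. Because ATF4 is controlled largely at translation, its own mRNA level need not follow its activity. Serine synthesis feeds glycine and the mitochondrial folate cycle, and proline and glycine are major residues of the collagen that cardiac fibroblasts secrete.

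Promoters of 4 of the genes are shown because they hold letters of a known ATF4 or MYC-type binding motif, and the results describe these genes beside others in whose windows neither motif was found. Each window runs from 250 bases before to 50 bases after the transcription start in RefSeq for GRCm38.p6, so it covers the proximal promoter and the first transcribed bases. It is written 5′ to 3′ on the strand of the gene. Capitals mark the core of the C/EBP-ATF response element, TGATGNAA read on either strand, in the first 3 windows and the E-box CACGTG in the last. Chac1 is at chr2:119350992-119351291 on the plus strand, Trib3 at chr2:152344011-152344310 on the minus strand, Asns at chr6:7693160-7693459 on the minus strand and Aldh18a1 at chr19:40588414-40588713 on the minus strand.
Chac1: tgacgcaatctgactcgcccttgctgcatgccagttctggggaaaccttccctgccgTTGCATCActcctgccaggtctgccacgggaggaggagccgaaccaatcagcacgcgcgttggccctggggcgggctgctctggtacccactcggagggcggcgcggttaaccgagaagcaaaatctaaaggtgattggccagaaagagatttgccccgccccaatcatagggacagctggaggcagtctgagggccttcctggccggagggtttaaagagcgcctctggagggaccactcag
Trib3: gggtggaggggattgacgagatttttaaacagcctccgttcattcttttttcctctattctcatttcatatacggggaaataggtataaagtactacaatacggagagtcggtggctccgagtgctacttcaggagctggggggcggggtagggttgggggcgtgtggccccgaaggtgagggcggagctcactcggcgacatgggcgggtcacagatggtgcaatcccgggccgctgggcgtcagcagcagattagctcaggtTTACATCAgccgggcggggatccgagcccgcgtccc
Asns: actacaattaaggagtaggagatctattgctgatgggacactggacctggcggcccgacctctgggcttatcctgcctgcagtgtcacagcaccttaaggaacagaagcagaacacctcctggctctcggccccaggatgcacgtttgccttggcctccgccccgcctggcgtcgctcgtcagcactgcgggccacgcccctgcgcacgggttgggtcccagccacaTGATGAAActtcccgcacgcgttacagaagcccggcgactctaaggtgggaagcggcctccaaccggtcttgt
Aldh18a1: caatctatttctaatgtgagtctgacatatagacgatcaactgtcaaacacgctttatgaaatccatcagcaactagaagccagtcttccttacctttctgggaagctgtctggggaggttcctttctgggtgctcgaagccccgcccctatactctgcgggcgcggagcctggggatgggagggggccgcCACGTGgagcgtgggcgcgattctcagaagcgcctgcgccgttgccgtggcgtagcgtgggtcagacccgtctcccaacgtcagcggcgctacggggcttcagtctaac

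With bases counted from the transcription start, the element of Chac1 began at position -193 and lay on the opposite strand, so the window reads TTGCATCA. In Asns it began at position -23 as TGATGAAA, and in Trib3 it began at position 14, after the start, as TTACATCA on the opposite strand. The Pycr1 window held the element as TGATGCAA. The windows of Atf4, Phgdh, Psat1 (2 windows) and Mthfd2 held neither motif, and that of Slc7a5 was not analysed here. The element core occurred in 3.97% of 32851 promoter windows and the E-box in 7.15%, both searched on both strands. The motifs can share the letters TG where an E-box runs into a response element, and none of the member windows held both. A match in a window is a description of its letters and not a measured binding site.

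The arrays had median intensities of 106.6 to 115.2, and no pair of arrays was identical. The authors had already processed the values together, so similar medians do not show that the arrays are comparable. Endothelial markers separated the cell types, with 7 of 7 called higher in endothelial cells by the limma fit described below. Of 8 fibroblast markers, 3 were called higher in fibroblasts. All 8 lay above the array median on all 4 fibroblast arrays, but so did 8 on the TAC and 6 on the sham endothelial array. Lying above the median therefore did not separate the cell types. The TAC untraced fibroblast array stood apart in RNA quality: its Gapdh 3′ minus 5′ difference was 2.10 in log2 units, against 1.12 to 1.36 on the other 5 arrays. Its 3 probe sets for 18S ribosomal RNA were also the lowest: the 5′ and 3′ sets had 11.15 and 11.30, against 13.73 to 14.76 elsewhere, and the middle set had 13.67, against 14.44 to 14.75 elsewhere. The spiked-in BioB controls, added to the hybridisation mix, had 8.36 to 9.36 on the fibroblast and 10.64 to 11.37 on the endothelial arrays, so they differed with the cell type. The part of these technical differences in the results was not tested. Transcripts of dividing cells differed with surgery, as 9 of 9 proliferation markers were at least 2-fold higher after TAC in both fibroblast populations and in endothelial cells. All levels below are log2 probe set intensity and all differences are log2 differences unless a fold is given. In sorted bulk RNA, a smaller share of expressing cells and less RNA per cell cannot be told apart.

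**Figure D1:**
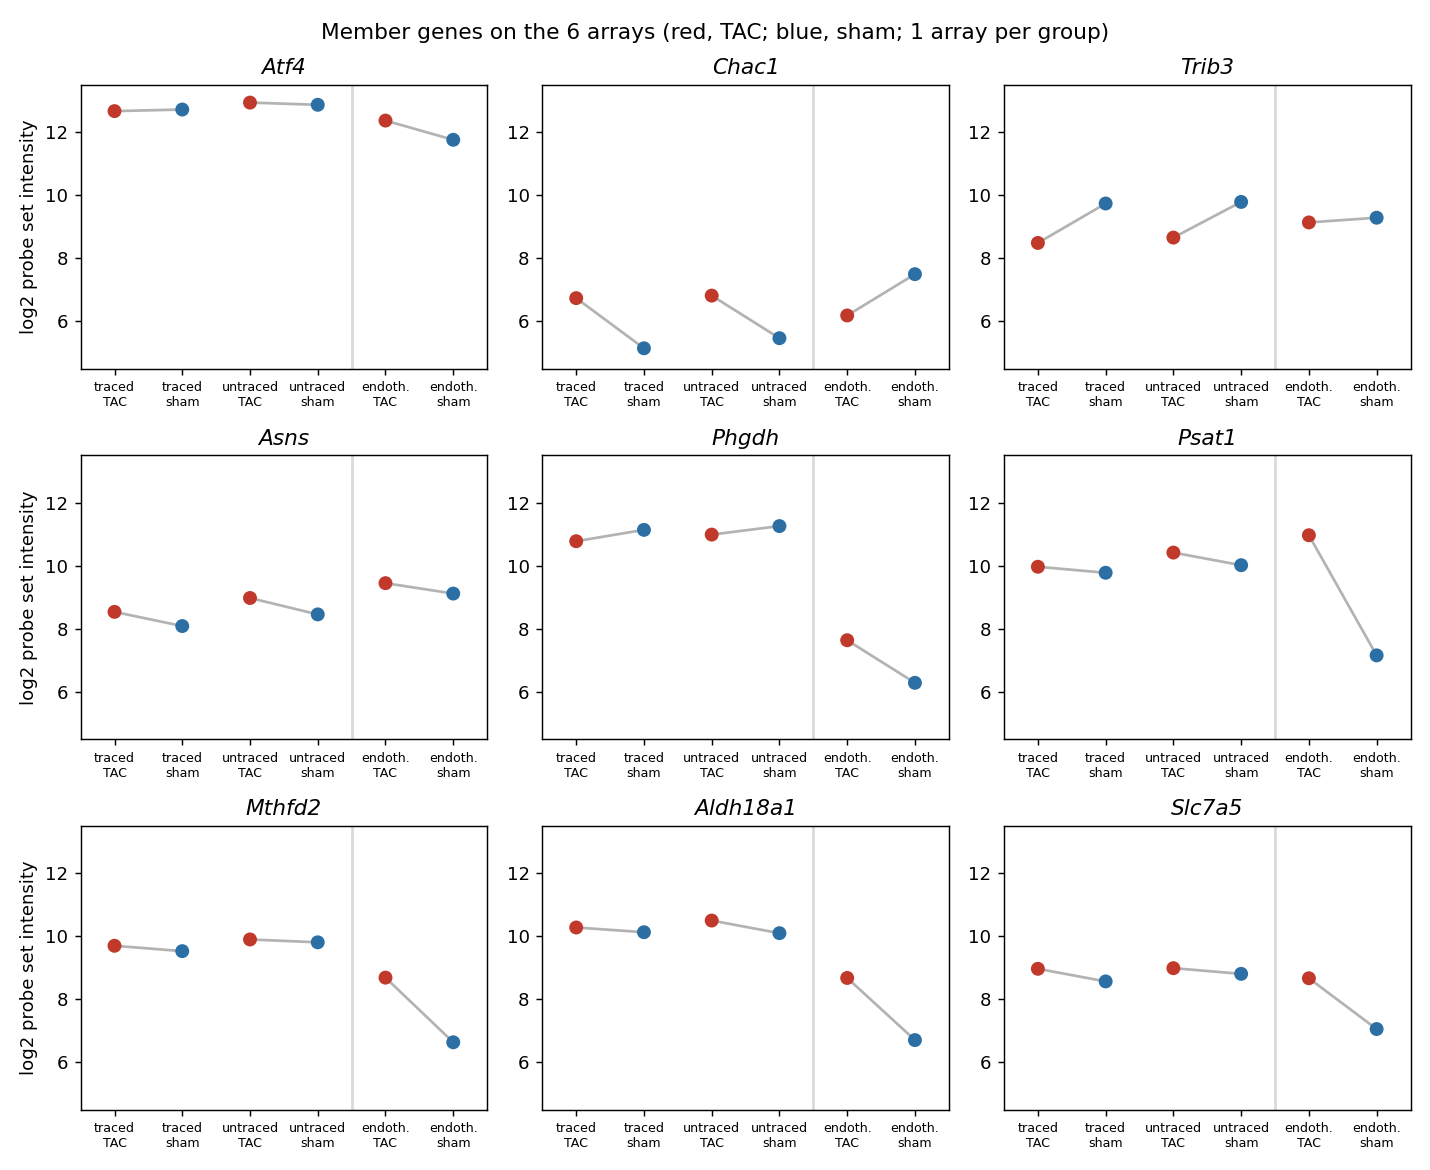
Log2 probe set intensity (vertical axis) of the 9 measured genes on the 6 arrays (horizontal axis), with TAC in red, sham in blue, a line joining the arrays of 1 population, and 1 array per point. Psat1, Mthfd2, Aldh18a1, Slc7a5, Phgdh and Atf4 have their lowest point on the sham endothelial array, whereas Chac1 has its highest point there, at 7.50.

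The first comparison asked how these transcripts differed in fibroblasts under pressure overload. Chac1 was higher and Trib3 was lower by more than 2-fold in both fibroblast populations after TAC, while Atf4 itself and the enzymes of serine, folate and proline synthesis differed by less than 2-fold. Of all 11623 genes detected on a fibroblast array, 4.33% were at least 2-fold higher and 1.79% at least 2-fold lower in both populations. Among the 9 genes this was 1 higher and 1 lower, counts too small to be set against those shares. All 9 passed the detection filter, which asked for a level above the array's own median on at least 1 of the arrays compared.

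Atf4 had a level of 12.67 in TAC traced and 12.94 in TAC untraced fibroblasts, against 12.72 in sham traced and 12.87 in sham untraced fibroblasts. The TAC and sham ranges overlapped, and the TAC minus sham differences were -0.05 in traced and 0.07 in untraced cells. Its probe set lay at the 98.5 to 98.9 percentile of the fibroblast arrays. The other 2 Atf4 probe sets differed by -0.42 and -0.39 in traced cells and by 0.37 and 0.03 in untraced cells.

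Chac1 encodes an enzyme that degrades glutathione and is a target of the ATF4, ATF3 and CHOP cascade. Its level was 6.74 in TAC traced and 6.82 in TAC untraced fibroblasts, against 5.15 in sham traced and 5.47 in sham untraced fibroblasts. Both TAC arrays lay above both sham arrays, by 1.59 in traced and 1.35 in untraced cells, or 3.01-fold and 2.55-fold. The signal was dim: among fibroblast arrays only the TAC untraced array, the one with the Gapdh difference above, exceeded its own array median, so Chac1 passed the detection filter through a TAC array. Without that array, the traced difference of 1.59 is the value that is left, and the traced TAC array lay at its 49.1 percentile, just under the median. With 50 added to each intensity the Chac1 difference was 0.88 in traced and 0.79 in untraced cells, which is under 2-fold.

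Trib3, a pseudokinase that ATF4 and CHOP induce and that in turn restrains them, had the opposite sign. Its level was 8.49 in TAC traced and 8.66 in TAC untraced fibroblasts, against 9.74 in sham traced and 9.79 in sham untraced fibroblasts. Both TAC arrays lay below both sham arrays, by differences of -1.25 and -1.13. The second Trib3 probe set gave -1.07 and -1.22. Chac1 and Trib3, whose windows both hold the response element, differed in opposite directions on the same 4 arrays.

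Asns makes asparagine from aspartate and glutamine. It had 8.54 in TAC traced and 8.98 in TAC untraced fibroblasts, against 8.09 in sham traced and 8.46 in sham untraced fibroblasts. Both TAC arrays were above both sham arrays, by 0.45 and 0.52 within the populations, and the second probe set gave 0.87 and 0.68. The TAC traced and sham untraced arrays lay close together, and at each surgery the traced array was lower than the untraced one.

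Phgdh and Psat1, of the serine pathway, differed by less than 1.5-fold between surgeries in fibroblasts on the probe sets used. Phgdh, the first enzyme of serine synthesis, had 10.78 in TAC traced and 10.99 in TAC untraced fibroblasts, against 11.14 in sham traced and 11.26 in sham untraced fibroblasts, so both TAC arrays were slightly below both sham arrays. Psat1, the aminotransferase of the next step, had 9.97 and 10.42 in TAC traced and untraced fibroblasts, against 9.78 and 10.02 in sham traced and untraced fibroblasts, with overlapping ranges. For Phgdh the TAC minus sham difference was -0.36 in traced and -0.26 in untraced cells, and for Psat1 it was 0.19 in traced and 0.40 in untraced cells.

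Mthfd2, the mitochondrial folate dehydrogenase, had 9.70 and 9.90 in TAC traced and untraced fibroblasts, against 9.53 and 9.81 in sham traced and untraced fibroblasts, and these ranges overlapped. Aldh18a1, which makes the precursor of proline from glutamate, had 10.28 and 10.50 in the TAC arrays, against 10.13 and 10.10 in the sham arrays of traced and untraced fibroblasts. Slc7a5, the light chain of a large neutral amino acid transporter, had 8.97 and 8.99 in the TAC arrays, against 8.57 and 8.81 in the sham arrays of traced and untraced fibroblasts. Aldh18a1 and Slc7a5 had both TAC arrays above both sham arrays, but by no more than 0.40 in either population on the probe sets used.

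In all, 4 genes (Chac1, Asns, Aldh18a1 and Slc7a5) had both TAC fibroblast arrays above both sham arrays, beside 34.0% of all detected genes. A further 2 (Trib3 and Phgdh) had both below, beside 26.2% of all detected genes, and 3 overlapped. The median TAC minus sham difference, averaged over traced and untraced cells, was 0.27 over the 9 genes and 0.05 over all detected genes.

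Markers of other cells also differed on these arrays. Of 6 mural markers, 3 were at least 2-fold lower after TAC in both fibroblast populations: Myh11, a smooth muscle myosin, by a mean difference of -1.81, and the channel genes Abcc9 and Kcnj8 by -1.61 and -1.28. The mural list summed to 11.61 in TAC traced and 11.36 in TAC untraced fibroblasts, against 12.17 in sham traced and 12.26 in sham untraced fibroblasts, on the log2 scale. Endothelial markers summed to 9.44 in TAC traced and 9.95 in TAC untraced fibroblasts, against 10.31 in sham traced and 10.48 in sham untraced fibroblasts. Macrophage markers summed to 9.34 to 9.69 on the TAC and 9.33 to 9.36 on the sham fibroblast arrays, and cardiomyocyte markers to 10.19 to 10.48 on the TAC and 9.90 to 10.13 on the sham fibroblast arrays. Of 4 cardiomyocyte markers detected on a fibroblast array, 1 was at least 2-fold higher in both populations. It was Actc1, by 1.74 in traced and 1.49 in untraced cells. The part of these other cell types, or of dividing cells, in the Chac1 and Trib3 differences was not tested.

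**Figure D2:**
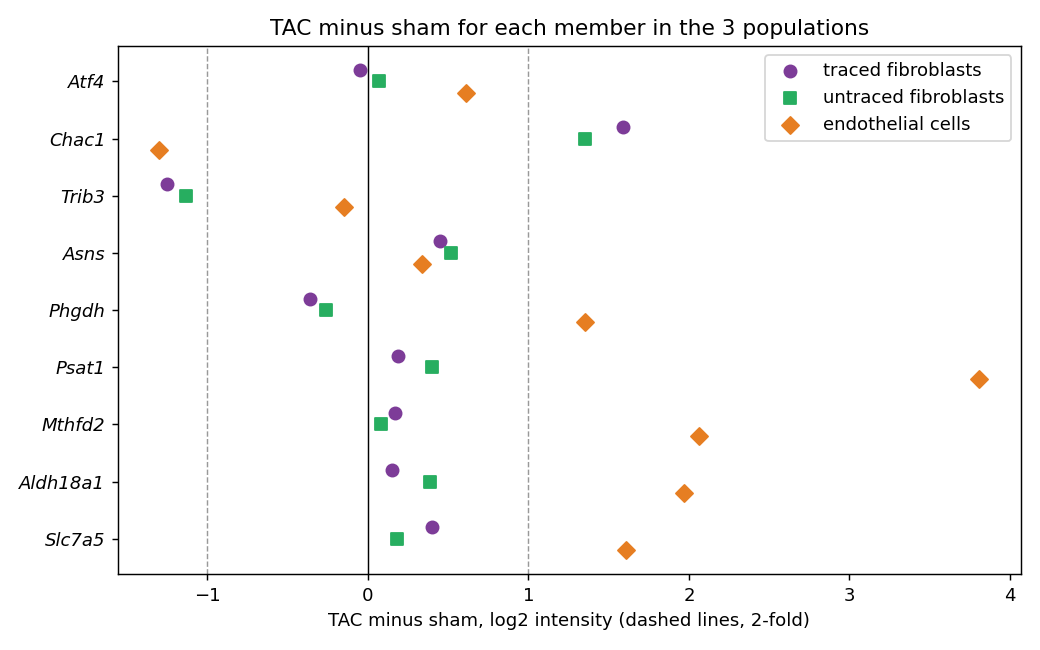
TAC minus sham difference in log2 intensity (horizontal axis) of each measured gene in traced fibroblasts (circles), untraced fibroblasts (squares) and endothelial cells (diamonds), with dashed lines at 2-fold and 1 array per group. The fibroblast points of a gene lie close together, from -1.25 for Trib3 to 1.59 for Chac1, and the endothelial points reach 3.81 for Psat1.

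Few genes of the wider ATF4 and amino acid lists differed by 2-fold in fibroblasts. The 6 lists held 68 genes, of which 63 were measured and 58 detected on a fibroblast array. In both populations 1 was at least 2-fold higher and 1 at least 2-fold lower, beside 4.33% and 1.79% of all detected genes. The median difference was 0.05. The higher gene was Aldh1l1, a cytosolic folate dehydrogenase, with 6.98 and 7.05 in TAC traced and untraced fibroblasts, against 5.65 and 5.95 in sham traced and untraced fibroblasts. Aldh1l1 lay above the array median on the TAC fibroblast arrays only, so it passed the filter through them. The lower gene was Glul, glutamine synthetase, with 11.68 and 11.52 in TAC traced and untraced fibroblasts, against 12.83 and 12.53 in sham traced and untraced fibroblasts. The other serine, glycine and folate genes had a median difference of 0.25, with 7 of 10 above 0, and the 13 aminoacyl-tRNA synthetases a median of 0.06, with 8 above 0. Over all genes detected in fibroblasts, 6433 of 11623 were above 0.

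The branches of the unfolded protein response that run through ATF6 and XBP1 were listed for comparison. All 10 of these genes had a mean difference below 0 in fibroblasts, with a median of -0.53, and Sdf2l1, an endoplasmic reticulum chaperone cofactor, was at least 2-fold lower, with differences of -1.68 in traced and -1.80 in untraced cells. Among other ATF4 targets, 0 of 13 detected genes reached 2-fold in both populations. Ddit3, which encodes CHOP and was singled out after its values were seen, differed by -0.02 in traced and -0.52 in untraced cells.

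The second comparison set TAC against sham endothelial cells. Psat1 was 14.0-fold higher on the TAC endothelial array, Mthfd2 4.16-fold, Aldh18a1 3.93-fold, Slc7a5 3.05-fold and Phgdh 2.55-fold, and Chac1 was lower. At least 2-fold higher were 5 of the 9 genes, beside 10.9% of the 11157 genes detected on an endothelial array, and 1 was at least 2-fold lower, beside 1.83%. Each of these differences sets 1 array against 1 array. Phgdh, Mthfd2 and Aldh18a1 were above the median on the TAC endothelial array only, and Chac1 on the sham endothelial array only. They passed the filter through the array on which they were high, so the counts depend on it. With the upper quartile as the filter, 1 gene was at least 2-fold higher and 0 were at least 2-fold lower.

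Psat1 had 10.97 in TAC endothelial cells, against 7.16 in sham endothelial cells. The TAC endothelial level was above all 4 fibroblast arrays, and the sham endothelial level was 2.62 below the next lowest array. The second Psat1 probe set had 9.90 in TAC endothelial cells, against 6.31 in sham endothelial cells, a difference of 3.59. On that probe set the TAC endothelial level lay within the fibroblast range of 9.56 to 10.14.

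Mthfd2 had 8.69 in TAC endothelial cells, against 6.64 in sham endothelial cells, and its second probe set differed by 3.17. Aldh18a1 had 8.68 in TAC endothelial cells, against 6.71 in sham endothelial cells, and its 5 probe sets differed by 1.06 to 1.97. Slc7a5 had 8.67 in TAC endothelial cells, against 7.06 in sham endothelial cells. On the sham endothelial array Mthfd2 lay at the 46.9 percentile, Aldh18a1 at the 48.0 percentile and Phgdh at the 41.5 percentile, all below the array median. For Mthfd2 and Aldh18a1 the TAC endothelial array stayed below every fibroblast array, and for Slc7a5 it lay within the fibroblast range.

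Phgdh had 7.64 in TAC endothelial cells, against 6.29 in sham endothelial cells, and stayed far below the fibroblast arrays. Its probe sets did not give the same answer, since 1 of the other 3 differed by 1.04 and 2 by 0.00. All 4 carry a name suffix by which the maker marks probes that can bind related sequences. Averaging its 4 probe sets gave a difference of 0.60, under 2-fold.

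Atf4, Asns and Trib3 differed by less than 2-fold between the endothelial arrays, and Chac1 was lower. Atf4 had 12.37 in TAC endothelial cells, against 11.76 in sham endothelial cells, a difference of 0.61 that was 0.04 when its 3 probe sets were averaged. Asns had 9.45 in TAC endothelial cells, against 9.12 in sham endothelial cells, and Trib3 had 9.14 in TAC endothelial cells, against 9.29 in sham endothelial cells. Chac1 had 6.19 in TAC endothelial cells, against 7.50 in sham endothelial cells, the highest of its 6 levels. The median TAC minus sham difference was 1.35 over the 9 genes and 0.18 over all genes detected on an endothelial array.

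Fibroblast transcripts differed along with these genes. All 8 fibroblast markers were at least 2-fold higher on the TAC endothelial array, with a median difference of 3.63, and their summed intensity was 15.29 in TAC endothelial cells, against 11.57 in sham endothelial cells, on the log2 scale, while the fibroblast arrays had 16.46 to 16.54. Endothelial markers summed to 16.05 in TAC and 16.29 in sham endothelial cells, macrophage markers to 9.79 in TAC and 8.97 in sham endothelial cells, and cardiomyocyte markers to 12.00 in TAC and 13.16 in sham endothelial cells. Mural markers summed to 13.01 in TAC and 13.76 in sham endothelial cells, with 2 of 6 at least 2-fold lower, and proliferation markers to 14.41 in TAC and 10.54 in sham endothelial cells. Of 6 detected cardiomyocyte markers, 4 were at least 2-fold lower on the TAC endothelial array. Of 4 detected macrophage markers, 2 were at least 2-fold higher there. The part of fibroblasts, mural cells, cardiomyocytes, macrophages or dividing cells in the endothelial differences was not tested.

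Endothelial intensity was also expressed as a percentage of the mean fibroblast intensity of the same surgery. The 8 fibroblast markers on the TAC endothelial array had 9.7% to 64.5% of the mean fibroblast intensity, with a median of 30.4%, and on the sham endothelial array 0.989% to 5.35%, with a median of 3.21%. Phgdh had 10.5% after TAC and 3.33% at sham, Aldh18a1 30.6% and 9.42%, and Mthfd2 46.4% and 12.2%, so after TAC all 3 lay within the range of the markers, and at sham Phgdh did while Aldh18a1 and Mthfd2 lay above it. For Phgdh this depends on the probe set. At sham others, at 2.36-fold and 5.13-fold between fibroblasts and endothelial cells, lay above the marker range. After TAC another, at 12.3-fold, lay below the marker range. Slc7a5 had 81.1% after TAC and 32.3% at sham, and Psat1 170% after TAC and 15% at sham, both above every fibroblast marker of the same surgery. Atf4 had 73.7% and 48.9%, Trib3 148% and 71.9%, Asns 160% and 178% and Chac1 66.5% and 453%, each after TAC and at sham.

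**Figure D3:**
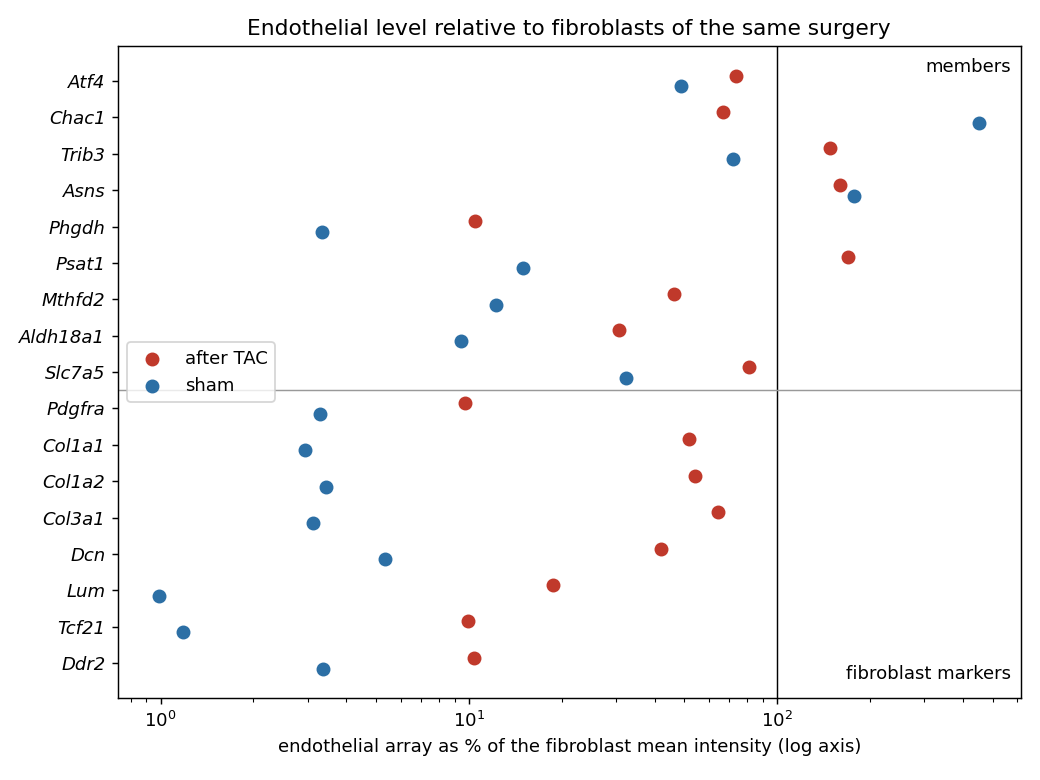
Endothelial intensity as a percentage of the mean fibroblast intensity of the same surgery (horizontal log axis) for the 9 measured genes (top) and 8 fibroblast markers (bottom), with TAC in red and sham in blue, 1 endothelial array per point. The markers lie between 9.7% and 64.5% after TAC and at or below 5.35% at sham, and Psat1 lies at 170% after TAC and 15% at sham.

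Other genes of these pathways were also higher on the TAC endothelial array. Of 53 detected genes in the wider lists, 11 were at least 2-fold higher, which is 20.8%, beside 10.9% of all genes detected on an endothelial array. Another 1 was at least 2-fold lower, beside 1.83% of all genes, and the median difference of the lists was 0.60. Among other ATF4 targets 4 of 10 were at least 2-fold higher. Nupr1, a stress-induced chromatin protein, had 10.47 in TAC endothelial cells, against 6.70 in sham endothelial cells, and Atf3, a stress-induced transcription factor, had 12.35 in TAC endothelial cells, against 10.47 in sham endothelial cells. Stc2, a secreted glycoprotein, and Atf5, a transcription factor related to ATF4, differed by 1.81 and 1.62. Nupr1, Stc2 and Atf5 had higher levels on all 4 fibroblast arrays than on either endothelial array, whereas Atf3 did not. Nupr1 and Stc2 lay below the median of the sham endothelial array, so they passed the filter through the TAC endothelial array.

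The serine and folate neighbours were also represented, by 3 of 9 detected genes. Mthfd1l, the mitochondrial formyltetrahydrofolate enzyme, had 7.60 in TAC endothelial cells, against 5.94 in sham endothelial cells, where it lay below the array median. Psph, which releases serine in the last step of its synthesis, had 8.41 in TAC endothelial cells, against 7.27 in sham endothelial cells, and Mthfd1, the cytosolic folate enzyme, had 9.29 in TAC endothelial cells, against 8.28 in sham endothelial cells. The other 6 detected genes of that list stayed under 2-fold, and its median was 0.10.

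Some transporters and tRNA synthetases also reached 2-fold. Slc7a6, a cationic and neutral amino acid exchanger, differed by 1.43 and Slc1a5, a glutamine transporter, by 1.38 between TAC and sham endothelial cells, as 2 of 7 detected transporters. On the sham endothelial array Slc7a6 lay below the array median. Slc3a2, the heavy chain that pairs with Slc7a5 and was singled out after its values were seen, differed by 0.22. Of 13 aminoacyl-tRNA synthetases, 12 were above 0, beside 7039 of all 11157 genes, with a list median of 0.79. Aars and Yars differed by 1.33 and 1.01, and Wars, which interferon also induces, differed by -1.10. The eIF2 alpha kinase list had 0 of 8 detected genes at 2-fold, and the ATF6 and XBP1 list 0 of 10.

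**Figure D4:**
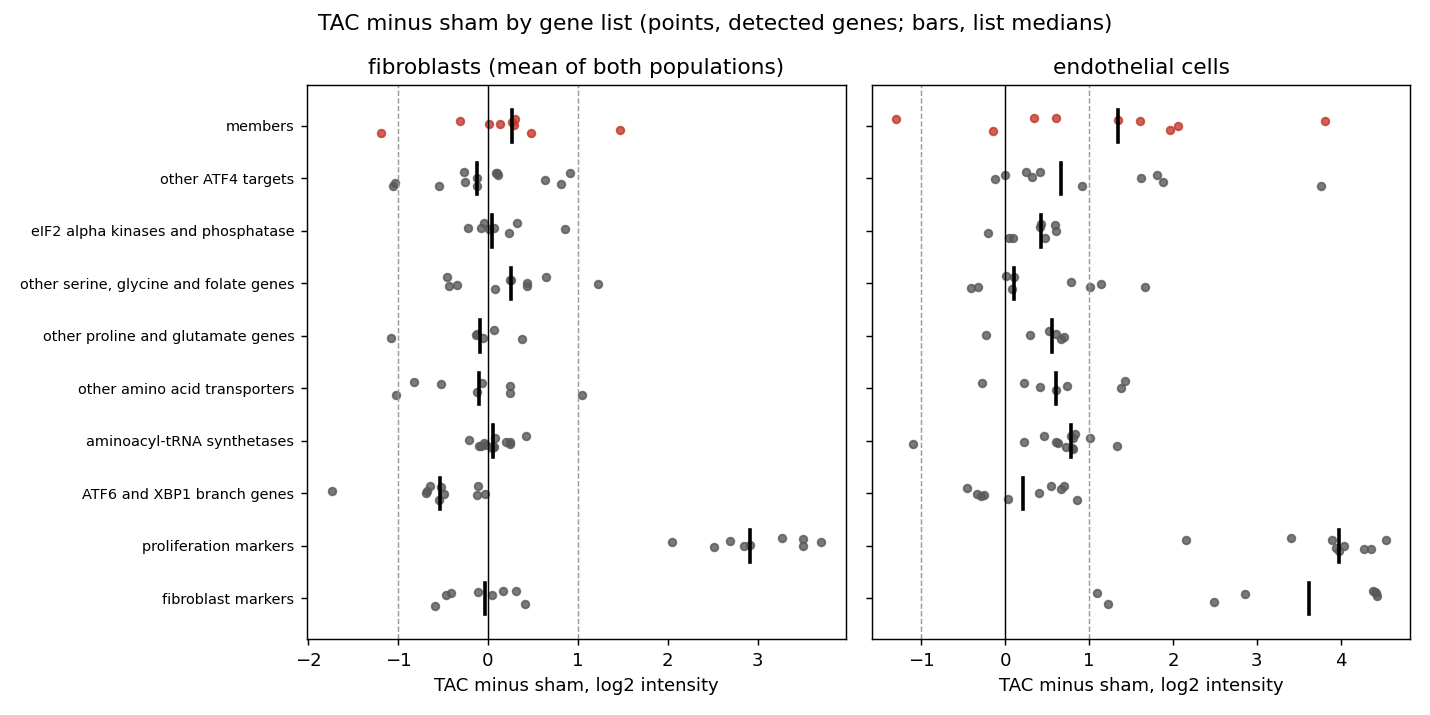
TAC minus sham difference in log2 intensity (horizontal axes) of detected genes by list, in fibroblasts as the mean of both populations (left) and in endothelial cells (right), with points for genes, bars for list medians and dashed lines at 2-fold. The measured set has a median of 0.27 in fibroblasts and 1.35 in endothelial cells, and the fibroblast markers have -0.03 and 3.63.

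The third comparison asked which cell type carries these transcripts. Traced and untraced arrays of a surgery were averaged, so each cell type had 2 values, and limma was fitted over 12257 detected genes. Phgdh was the only gene of the 9 that was called, at a fibroblast minus endothelial difference of 4.07 ± 0.505 (SE, 2 values per cell type), or 16.8-fold (limma, Benjamini-Hochberg adjusted p = 0.0136). Over all genes 11.5% were called higher in fibroblasts and 6.5% higher in endothelial cells, so 1 of 9 is near the background. What these p-values weigh is the spread between the TAC and sham values of a cell type, which may be technical.

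Phgdh had fibroblast levels of 10.78 to 11.26 and endothelial levels of 7.64 after TAC and 6.29 at sham. Every fibroblast array was above both endothelial arrays, by a difference of 3.24 after TAC and 4.91 at sham. The share of all detected genes with such a separation of the arrays was not counted. Here and below it only describes the levels. The other 3 probe sets also had higher fibroblast levels at both surgeries, and over the 4 the difference lay between 1.13 and 3.62 after TAC and between 1.24 and 4.91 at sham.

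Aldh18a1 and Mthfd2 were also higher on every fibroblast array than on both endothelial arrays, without passing the threshold. Their fibroblast minus endothelial differences were 2.56 ± 0.692 and 2.07 ± 0.712 (SE, 2 values per cell type; limma, Benjamini-Hochberg adjusted p = 0.0702 and 0.115). With surgery as a block in the limma fit, both were called, at adjusted p = 0.00902 for Aldh18a1 and 0.0241 for Mthfd2. The block leaves fewer residual degrees of freedom. With it 2298 of all genes were called higher in fibroblasts, against 1415 without it. Atf4 had the same order of arrays on the probe set used, at 0.73 ± 0.294 (adjusted p = 0.156 in the limma fit without the block). With its 3 probe sets averaged the difference was 0.33. On another Atf4 probe set the sham endothelial level of 11.64 was above the TAC traced level of 11.45 and the sham untraced level of 11.50. On the remaining one the fibroblast minus endothelial difference was -0.13 after TAC and 0.08 at sham. The difference of Aldh18a1 was 1.71 after TAC and 3.41 at sham, that of Mthfd2 1.11 after TAC and 3.03 at sham, and that of Atf4 0.43 after TAC and 1.03 at sham.

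Psat1 had opposite signs at the surgeries: its fibroblast minus endothelial difference was -0.78 after TAC and 2.74 at sham, and the limma difference was 0.98 ± 1.28 (adjusted p = 0.619). Slc7a5 differed by 0.30 after TAC and 1.62 at sham, with 0.96 ± 0.581 in the limma fit (adjusted p = 0.303). Chac1 differed by 0.59 after TAC and -2.19 at sham, and its limma difference was -0.80 ± 0.683 (adjusted p = 0.448). Trib3 differed by -0.56 after TAC and 0.48 at sham, and by -0.40 and 1.07 on its second probe set. Its limma difference was -0.04 ± 0.45 (adjusted p = 0.956).

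Asns was the only gene of the 9 with every fibroblast array below both endothelial arrays. Its differences were -0.69 after TAC and -0.84 at sham, with -0.77 ± 0.289 in the limma fit (adjusted p = 0.14). Leaving out an endothelial array left 1 endothelial value in the fit, so only differences are given here. Without the TAC endothelial array these were 2.88 for Psat1, 3.10 for Mthfd2, 3.54 for Aldh18a1, 1.77 for Slc7a5 and 4.75 for Phgdh. Without the sham endothelial array they were -0.93 for Psat1, 1.04 for Mthfd2, 1.57 for Aldh18a1, 0.16 for Slc7a5 and 3.40 for Phgdh.

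**Figure D5:**
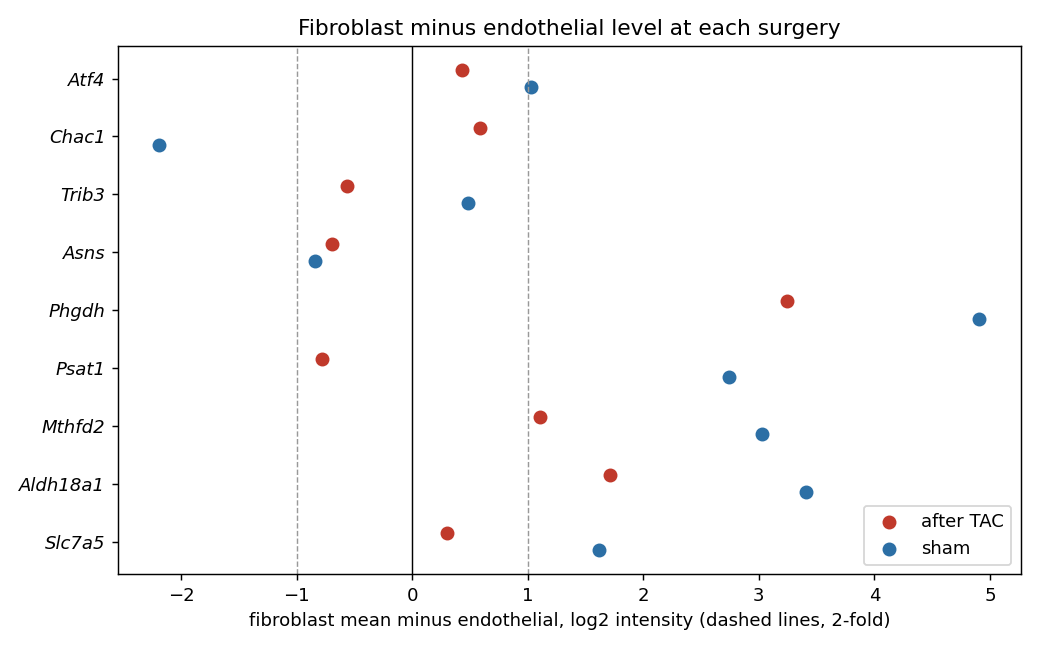
Fibroblast mean minus endothelial level in log2 intensity (horizontal axis) of each measured gene, after TAC (red) and at sham (blue), with dashed lines at 2-fold. Phgdh lies at 3.24 after TAC and 4.91 at sham, Psat1 lies at -0.78 after TAC and 2.74 at sham, and Asns lies below 0 at both.

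In the wider lists 13 genes were called higher in fibroblasts and 1 higher in endothelial cells by the limma fit. For the fibroblast direction this is 22.4% of 58 detected genes. Over all 12257 detected genes 11.5% were called higher in fibroblasts and 6.5% higher in endothelial cells. Among ATF4 targets the genes called higher in fibroblasts were led by Stc2 at 4.56 and Vldlr, a lipoprotein receptor, at 4.32. Atf5 followed at 3.44 and Gpt2, an alanine aminotransferase, at 3.19. The transporters were Slc1a5 at 2.93, Slc43a1 at 2.84, Slc1a4, a neutral amino acid transporter, at 2.71 and Slc6a9, a glycine transporter, at 2.65, which is 4 of 8 detected. Aldh1l2, the mitochondrial formyltetrahydrofolate dehydrogenase, differed by 1.92, Oat, which links ornithine to proline, by 1.45 and the kinase Eif2ak3 by 1.42. Vldlr, Gpt2, Slc43a1 and Aldh1l2 were not detected on either endothelial array, so they passed the filter only through the fibroblast arrays on which they were high. Nck1, an adaptor that binds eIF2 complexes, was the gene higher in endothelial cells, at -1.73. Of the ATF6 and XBP1 list, Pdia4, a protein disulfide isomerase, was called at 1.56.

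Between traced and untraced fibroblasts 0 of the 9 genes reached 2-fold at both surgeries, beside 0.0688% of detected genes. Their traced minus untraced differences ran from -0.45 to -0.02 after TAC and from -0.37 to 0.03 at sham. The median was -0.21 after TAC and -0.24 at sham over the 9 genes, against -0.07 and -0.11 over all detected genes.

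As a description over the 6 arrays, which share their surgeries and populations, the gene with the pattern closest to each member was taken by Pearson r among 6756 detected genes that ranged over at least 1 log2 unit. Phgdh was most like Olfm1, a secreted glycoprotein gene, at r = 0.9998, and 1491 genes had r above 0.95 with it. Aldh18a1 was most like Stx18 at 0.9996, Mthfd2 like Scd2 at 0.9994, Slc7a5 like Lage3 at 0.9985, Atf4 like Hdhd2 at 0.9979 and Psat1 like Parl at 0.9959. Genes with r above 0.95 numbered 1232 for Aldh18a1, 936 for Mthfd2, 323 for Slc7a5, 911 for Atf4 and 46 for Psat1. Trib3 was most like Stxbp6 at 0.9942, Asns like Fam160a1 at 0.9863 and Chac1 like Zswim6 at 0.9763, with 6, 41 and 3 genes above 0.95. With 6 arrays in 6 groups such values are high for many genes.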

How the data were processed

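Probe set intensity values for 6 Affymetrix mouse arrays, 1 per group, were used as the authors deposited them, per the labels starting from 200 ng of total RNA. Per the submitters' processing notes the authors ran RMA. Its version is not given in the sources used here, and the linear scale was read from the values. RMA pulls dim differences towards 0, and the number of arrays limits precision. The log2 of each deposited intensity was taken without further normalization. Symbols came from the platform annotation, with 99.4% of gene identifiers found in the reference table. A gene was its single-symbol probe set with the highest mean. Detection meant a level above the array median on at least 1 array compared.

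TAC and lineage differences were counted at 2-fold with no test. For cell types, limma 3.58.1 (R 4.3.3, lmFit and eBayes) was fitted to 2 values each, leaving 2 residual degrees of freedom. Calls needed 2-fold and an adjusted p (Benjamini-Hochberg) under 0.05. Genes of the wider lists were named when they passed 2-fold or were called, at most 4 per list and comparison. The members and lists were chosen with earlier results of these data known. Alternatives covered probe set choice, filter, offset, centring, a surgery block, a variance trend, 1 lineage at a time and leaving out each array, and the effect of leaving out the TAC untraced array on the fibroblast difference was added after seeing the data. Promoter windows came from RefSeq.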

Additional observations from a re-analysis of the deposited data

Results flagged for a closer look

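The TAC minus sham difference of 2 genes had opposite signs in endothelial cells and in both fibroblast populations. For Chac1 the difference was -1.30 in endothelial cells, 1.59 in traced and 1.35 in untraced fibroblasts, so the endothelial value lay -2.78 from the fibroblast mean. For Phgdh it was 1.35 in endothelial cells, -0.36 in traced and -0.26 in untraced fibroblasts, so the endothelial value lay 1.66 from the fibroblast mean. Both differences rest on 1 array per group and were not tested. The opposite sign of Phgdh was seen on 2 of its 4 probe sets, and the other 2 had 0.00 in endothelial cells. Chac1 was above the array median only on the TAC untraced fibroblast and sham endothelial arrays.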

How the results depend on the processing

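Across the alternatives, 103 TAC minus sham values of single genes moved by less than 0.5 log2 units and 5 by more. Atf4 in endothelial cells moved to 0.04, Phgdh to 0.60 and Mthfd2 to 2.61 with all probe sets averaged, and with 50 added to each intensity Chac1 moved to 0.88 in traced and 0.79 in untraced fibroblasts. Adding 50 to each intensity left 0 genes at least 2-fold higher in both fibroblast populations and 0 at least 2-fold lower in endothelial cells. Keeping only genes above the upper quartile of at least 1 array compared left 0 higher in fibroblasts, 1 higher in endothelial cells and 0 lower in endothelial cells. With surgery as a block, 2298 genes of all were called higher in fibroblasts, and so were 3 of the 9 (Mthfd2 and Aldh18a1 beside Phgdh). With 50 added, 2 of the 9 were called. Leaving out each array in turn gave 685 to 1715 genes higher in fibroblasts and 472 to 817 higher in endothelial cells, and 1 to 5 of the 9 higher in fibroblasts. The lowest counts over all genes came without the sham endothelial array, and the 5 came without the TAC endothelial array. Each fit without an endothelial array left 1 endothelial value, so its counts are not read as support for any call. Phgdh differed by 2.94 to 4.75 over all 16 alternatives. It was called in every alternative that kept both endothelial arrays, at adjusted p of 0.00206 to 0.0166 (limma, Benjamini-Hochberg). The alternative without suffixed probe sets did not alter its probe set, since it has no other kind. No value past a threshold in the main setting changed sign. The Psat1 fibroblast minus endothelial difference was 0.98 in that setting and not called. It was 2.88 without the TAC endothelial array and -0.93 without the sham endothelial array. With 1 array per group the data cannot separate surgery from differences between arrays, and dim genes such as Chac1 have the least certain values.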
